A study of Mus musculus with 6 samples.

Results

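The Iroquois transcription factor genes and the Fto locus were examined in brown adipocytes grown from U-IRX3ov mice and from control mice. The set held 9 genes chosen by name: the 6 Iroquois genes Irx1 to Irx6, the antisense transcript Irx3os, and the neighbouring genes Fto and Rpgrip1l. All 9 were among the 46095 rows of the count table, and 6 of them (Irx1, Irx2, Irx3, Irx5, Fto and Rpgrip1l) had enough counts to be among the 14757 genes tested. RNA was sequenced from 3 control and 3 U-IRX3ov libraries. Both groups were cells of the stromal vascular fraction of brown adipose tissue from C57BL/6 mice aged 5 weeks. All cultures had gone through 8 days of induction: 2 days with insulin at 5 μg/mL, IBMX at 0.5 mM, and dexamethasone, triiodothyronine and rosiglitazone each at 1 μM, then 6 days in which only the insulin, triiodothyronine and rosiglitazone were kept. The groups differed by the U-IRX3ov genotype, which the labels do not spell out. The sources used here do not give the construct, its promoter, the species of its IRX3 sequence or any allele of the control mice. Whether reads of such a construct were counted in the mouse Irx3 row is therefore not known. It is also not stated that the 3 libraries per group were separate animals or cultures, so p-values measure the spread between these libraries only.

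Iroquois proteins are homeodomain transcription factors of the TALE class, which carry extra residues in a loop of the homeodomain and pattern the nervous system, heart and limbs. The genes lie in clusters that share long-range enhancers, and Irx3, Irx5 and Irx6 sit on the same chromosome as Fto. Introns of FTO hold common human variants associated with body weight, and enhancers in this stretch contact the IRX3 promoter, which is why IRX3 and IRX5 have been studied in adipocyte precursors and thermogenesis. Fto itself encodes a dioxygenase that removes methyl groups from adenosines in RNA. Rpgrip1l, which starts beside Fto and runs the other way, encodes a protein of the transition zone at the base of the primary cilium.

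The 6 Iroquois genes encode closely related homeodomains, and the sequences are shown because this likeness bears on how reads can be told apart. The first stretch below is the 90-base window of the Irx3 coding sequence with the highest mean identity to the other Iroquois genes. It encodes the end of the homeodomain, with the recognition helix that touches DNA. The others are the best matching 90 bases of each other gene, all read from the GENCODE transcripts 5′ to 3′. The identities given are thus those of the most alike stretch and not of whole homeodomains. Capitals mark the bases that differ from Irx3.
Irx3: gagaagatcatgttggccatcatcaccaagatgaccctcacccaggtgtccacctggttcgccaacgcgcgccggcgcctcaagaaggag
Irx1: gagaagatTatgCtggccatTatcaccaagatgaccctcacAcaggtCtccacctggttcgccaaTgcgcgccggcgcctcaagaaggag
Irx2: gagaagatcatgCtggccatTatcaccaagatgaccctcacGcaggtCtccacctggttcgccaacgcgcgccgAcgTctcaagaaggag
Irx4: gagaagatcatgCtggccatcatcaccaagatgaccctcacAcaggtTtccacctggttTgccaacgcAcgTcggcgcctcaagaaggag
Irx5: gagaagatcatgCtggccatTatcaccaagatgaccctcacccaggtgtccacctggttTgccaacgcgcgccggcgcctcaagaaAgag
Irx6: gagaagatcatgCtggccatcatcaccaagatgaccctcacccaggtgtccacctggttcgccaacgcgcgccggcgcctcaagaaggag
Irx6 matched Irx3 at 89 of the 90 bases (98.9%) and Irx5 matched it at 86 (95.6%), while Irx1, Irx2 and Irx4 each matched it at 84 (93.3%). Over the whole coding sequences the longest run of identical bases among the 15 pairs of genes ranged from 23 to 88 bases. The 88-base run was shared by Irx3 and Irx6, the 65-base run by Irx2 and Irx5, and the 50-base run by Irx3 and Irx5. Of all 50-base windows along a transcript, 1.56% of those of Irx3, 1.17% of Irx6, 0.680% of Irx5 and 0.621% of Irx2 also occurred in another Iroquois transcript, and none of Irx1 or Irx4 did. The read length and the treatment of reads that match several places were not stated.

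In the mm10 build, Fto lies at chr8:91313525-91668439 on the plus strand and Rpgrip1l at chr8:91217030-91313262 on the minus strand, so that their outermost annotated starts are 262 bases apart. Irx3 lies downstream of Fto at chr8:91798525-91802067 on the minus strand, 130085 bases beyond its end. Irx3os (chr8:91800415-91807539, plus strand) overlaps Irx3 on the opposite strand, with 124 shared exonic bases. Irx5 (chr8:92357625-92376286) and Irx6 (chr8:92674288-92680956) follow on the plus strand. The other cluster holds Irx1 (chr13:71957921-71963723, minus strand), Irx2 (chr13:72628820-72634198, plus strand) and Irx4 (chr13:73260479-73269608, plus strand).

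The promoters are shown because the windows of Fto and Rpgrip1l share most of their bases, so that the counts of these genes can be set side by side, and because Irx2 and Irx4 stood at the 2 ends of the Iroquois levels. Each window runs from 250 bases before to 50 bases after a start of the RefSeq annotation of GRCm38.p6, and 6 of the 9 genes had one. In the first pair, capitals mark the 198 bases that both windows hold, at positions 91313275 to 91313472 of chromosome 8, read on opposite strands.
Fto (chr8:91313275-91313574, plus strand): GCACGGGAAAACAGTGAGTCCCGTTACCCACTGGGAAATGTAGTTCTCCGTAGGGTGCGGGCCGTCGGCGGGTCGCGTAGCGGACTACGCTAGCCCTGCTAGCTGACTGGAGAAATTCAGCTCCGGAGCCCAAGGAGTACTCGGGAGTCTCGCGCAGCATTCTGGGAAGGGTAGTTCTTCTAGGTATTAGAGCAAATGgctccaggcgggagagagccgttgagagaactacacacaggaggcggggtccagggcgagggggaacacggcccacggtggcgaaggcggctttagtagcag
Rpgrip1l (chr8:91313173-91313472, minus strand): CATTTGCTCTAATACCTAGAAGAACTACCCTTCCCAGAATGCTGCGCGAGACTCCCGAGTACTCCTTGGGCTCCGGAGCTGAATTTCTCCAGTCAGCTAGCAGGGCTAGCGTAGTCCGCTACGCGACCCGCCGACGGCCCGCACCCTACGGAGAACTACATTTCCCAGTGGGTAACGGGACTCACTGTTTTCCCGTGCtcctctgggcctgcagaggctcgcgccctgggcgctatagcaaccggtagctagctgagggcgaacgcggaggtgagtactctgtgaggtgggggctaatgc
In the other group, capitals mark CG dinucleotides, whose density separates CpG island promoters from the rest.
Irx2 (chr13:72628570-72628869, plus strand): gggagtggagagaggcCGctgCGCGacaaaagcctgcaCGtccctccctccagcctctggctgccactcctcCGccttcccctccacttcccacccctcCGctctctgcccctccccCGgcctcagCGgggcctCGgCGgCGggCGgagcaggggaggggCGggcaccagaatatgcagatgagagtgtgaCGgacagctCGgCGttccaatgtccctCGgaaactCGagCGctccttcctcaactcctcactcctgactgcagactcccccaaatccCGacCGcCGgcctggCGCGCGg
Irx4 (chr13:73260247-73260546, plus strand): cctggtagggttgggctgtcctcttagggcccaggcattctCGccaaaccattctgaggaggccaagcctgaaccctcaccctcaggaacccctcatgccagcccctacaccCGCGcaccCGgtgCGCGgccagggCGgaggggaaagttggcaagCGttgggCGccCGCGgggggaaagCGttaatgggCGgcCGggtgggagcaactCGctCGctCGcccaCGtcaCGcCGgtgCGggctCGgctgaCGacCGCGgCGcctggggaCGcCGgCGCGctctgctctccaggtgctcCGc
Irx3 (chr8:91801605-91801904, minus strand): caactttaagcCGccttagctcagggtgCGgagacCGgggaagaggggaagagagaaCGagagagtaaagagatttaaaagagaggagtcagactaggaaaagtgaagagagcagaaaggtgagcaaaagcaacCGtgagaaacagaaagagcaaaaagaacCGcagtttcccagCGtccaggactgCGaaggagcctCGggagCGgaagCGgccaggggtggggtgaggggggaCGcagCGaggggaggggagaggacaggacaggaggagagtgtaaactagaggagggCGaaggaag
The window of Irx4 held 31 CG dinucleotides, that of Irx2 held 25, Fto 23, Rpgrip1l 22, Irx3 14 and Irx3os 6, against a median of 7 over 32851 mouse promoter windows. The windows of Irx3 and Irx3os lie wholly inside the GENCODE spans of these genes. They do not hold the outermost annotated starts, so their letters do not describe those starts. The letters ACANNTGT, a palindrome reported for Iroquois proteins, were searched on both strands and found in none of the 6 windows and in 7.38% of all windows. TATAAA, searched the same way, was also in none of the 6 and in 13.6% of all windows. GGGCGG, the GC box, occurred at 2 places each in Irx2 and Irx4 (35.7% of all windows hold it), and CCAAT at 1 place in Irx2 (37.4% of all windows). No binding or chromatin data were analysed here, and these matches describe letters only.

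To compare genes with each other, counts were scaled with TMM to CPM (counts scaled to a common library size) and divided by the exonic length in kilobases. On this scale the order of levels in control cells was Fto, Irx2, Irx1, Irx5, Irx3 and Rpgrip1l. Fto stood highest at 5.37 ± 0.10 CPM per kb (SD, n = 3) in the control libraries and at 5.40 ± 0.13 in the U-IRX3ov libraries. Irx2 followed at 3.51 ± 0.09 and 3.78 ± 0.33 and was the highest Iroquois gene in each of the 6 libraries. Irx1 was at 2.65 ± 0.08 CPM per kb in control and 2.48 ± 0.31 in U-IRX3ov libraries. Irx5 was at 1.99 ± 0.13 CPM per kb in control and 2.50 ± 0.32 in U-IRX3ov libraries. Irx3 was at 1.85 ± 0.12 and 2.23 ± 0.08. In control cells Irx5 and Irx3 did not differ beyond their spread, since their library ranges overlapped (1.88 to 2.12 and 1.73 to 1.96). In U-IRX3ov cells Irx1, Irx5 and Irx3 all overlapped, with Irx5 above Irx1 by mean. Rpgrip1l was the lowest of the tested genes at 0.631 ± 0.070 and 0.589 ± 0.041 CPM per kb. The order of means was the same when the longest transcript replaced the exonic length. The Fto to Rpgrip1l ratio of levels, taken in each control library and then averaged, changed from 8.59 to 11.4.

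**Figure D1:**
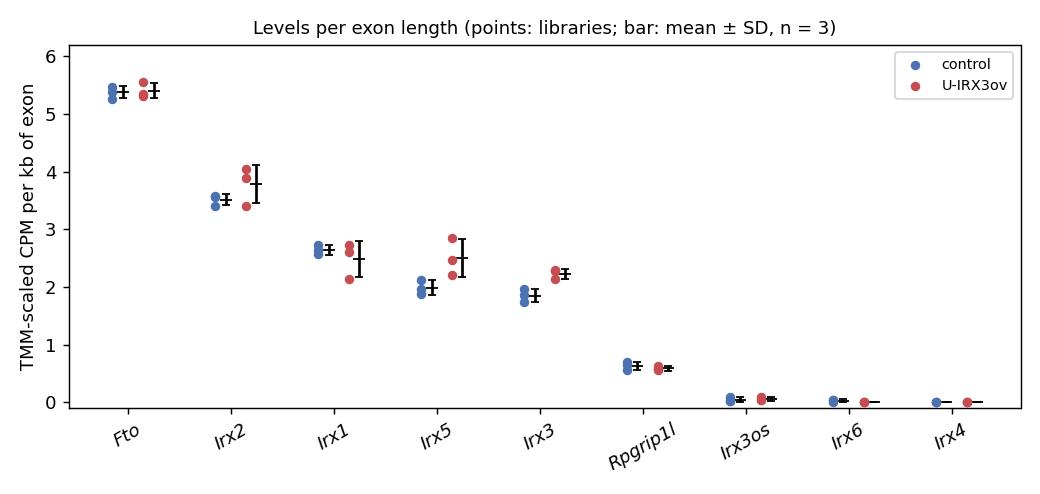
Level of each of the 9 genes in CPM per kb of exon, by library (points) with the mean ± SD of each group of 3 libraries (bars). Fto is highest at 5.37 in control libraries, Irx2 is the highest Iroquois gene at 3.51, and Irx4 has no counts in any library.

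Among 14199 tested genes with a known exonic length, the median level was 4.71 CPM per kb. Fto lay at percentile 53.3 of these genes, Irx2 at 43.9, Irx1 at 36.9, Irx5 at 34.7, Irx3 at 33.0 and Rpgrip1l at 16.2. On this length scale the 4 expressed Iroquois genes were thus below the median level, and Fto was just above it. Divided by the longest transcript instead, Fto was at 14.9 and Rpgrip1l at 1.32 CPM per kb in control cells. Percentiles were not computed with that length, so the places of these 2 genes depend on the length chosen. Irx2 made up 35.1% ± 0.49 (SD, n = 3) of the summed per-kb level of the 6 Iroquois genes in control cells and 34.4% ± 1.1 in U-IRX3ov cells. Irx1 made up 26.4% ± 0.43 in control cells and 22.5% ± 1.3 in U-IRX3ov cells. The share of Irx3 was 18.5% ± 0.73 in control cells and 20.4% ± 2.0 in U-IRX3ov cells, and that of Irx5 was 19.8% ± 0.72 and 22.7% ± 1.5. The shares of Irx1 and of Irx5 did not overlap between the groups, whereas those of Irx2 and Irx3 did. Shares within a library sum to a fixed total, so a lower share of Irx1 partly restates higher shares of other genes. In TMM-scaled CPM the groups overlapped for Irx1. On that scale 50.8% of all single tested genes had groups apart, and no such figure was computed for shares.

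The labelled cell type was checked against marker genes, whose levels differed between the groups. Ucp1, the uncoupling protein of brown fat, was at 19.7 ± 1.2 CPM in the control and 239.5 ± 24.1 CPM in the U-IRX3ov libraries. The 12 brown adipocyte markers summed to 324 to 333 CPM in control and 799 to 900 CPM in U-IRX3ov libraries. Of these, 9 were called higher and 2 lower (smallest p for Elovl3 and Cox8b). The 2 lower were Zic1 (13.5 ± 0.8 CPM in control and 7.33 ± 0.49 in U-IRX3ov) and Lhx8 (10.2 ± 0.5 and 6.33 ± 0.73). For comparison with this and the following lists, 41.3% of all tested genes were called, 20.2% higher and 21.1% lower. Of 10 general adipocyte markers 9 were higher (Pparg and Lipe first), with sums of 30206 to 30739 CPM and 38046 to 39392 CPM. Of 14 fibroblast and preadipocyte markers 12 were tested and 11 were lower (Col3a1 and Cd248 first), and their sum was 7787 to 8051 CPM in control and 4629 to 5065 CPM in U-IRX3ov libraries. Of 12 leukocyte markers 10 were tested and all 10 were lower (C1qb and Csf1r first), with sums of 478 to 586 CPM and 153 to 228 CPM. Of 10 endothelial markers 8 were tested, and 5 of these were higher (Pecam1 and Cdh5 first) and 0 lower. The 10 markers, with Cldn5 at 0, summed to 22.7 to 26.8 CPM and 43.8 to 49.3 CPM. Of 9 tested pericyte and smooth muscle markers 6 were lower and 2 higher (Acta2 and Myh11 first), with sums of 4557 to 4785 CPM and 2849 to 3174 CPM. The skeletal muscle list summed to 19.5 to 23.1 CPM and 16.6 to 20.6 CPM with Myf5 at 0, and of 3 tested 2 were higher (Myh3 first) and 1, Acta1, lower. The neuronal and Schwann list summed to 35.9 to 37.4 CPM and 25.2 to 27.9 CPM with Th at 0, and of 4 tested 2 were higher (Sox10 first) and 1, Tubb3, lower. In bulk RNA, fewer cells of a type and less RNA per cell cannot be told apart. The part of these shifts in the differences of the Iroquois and Fto locus genes was not tested.

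The row of Irx3, the gene in the genotype's name, cannot check the labels in either direction. Whether reads of the construct were counted in this row is not known. Irx3 had 131, 142 and 138 raw counts in the control libraries and 163, 123 and 114 in the U-IRX3ov libraries. Summed over a group this was 411 and 400 counts, in libraries that together held 77926629 and 67067881 counts. After TMM scaling Irx3 was at 4.78, 5.42 and 5.12 CPM in control and 6.27, 6.31 and 5.89 CPM in U-IRX3ov libraries. The highest control library was below the lowest U-IRX3ov library. The fold was 1.21 (95% interval 0.996 to 1.46), a log2 difference of 0.27 ± 0.13 (SE) with adjusted p = 0.112 by edgeR's quasi-likelihood test. The difference in Irx3 counts thus did not pass the test. The upper end of the interval allows a rise of 46.1% in counts assigned to the mouse gene. Counting error alone gives a coefficient of variation of 8.54% for Irx3 in control libraries, and the observed value was 6.27%. Irx3 and Irx3os share 124 exonic bases on opposite strands, and without known strandedness their reads there cannot be told apart.

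Irx5, the neighbour of Irx3 and encoder of a factor with overlapping developmental roles, was the only one of the 9 genes called different, and it was higher in U-IRX3ov cells. It had 161, 160 and 179 raw counts in control and 179, 173 and 149 in U-IRX3ov libraries, which sum to 500 and 501. The scaled values were 5.88, 6.11 and 6.64 CPM for control, against 6.88, 8.88 and 7.70 CPM for U-IRX3ov. The groups did not overlap, and U-IRX3ov replicate 2 was the highest library. The fold was 1.25 (95% interval 1.04 to 1.51), a log2 difference of 0.33 ± 0.13 with adjusted p = 0.0445. The call was close to the threshold of 0.05. It was lost when control replicate 1, control replicate 2, U-IRX3ov replicate 2 or U-IRX3ov replicate 3 was left out, and the difference ranged over the 6 omissions from 0.23 to 0.42 with adjusted p from 0.0231 to 0.216. It was also lost with DESeq2 (adjusted p = 0.0864) and with limma-voom (adjusted p = 0.0637). Scaled by summed counts instead of TMM, an alternative chosen after the data were seen, the difference was 0.23 (adjusted p = 0.158) and the libraries overlapped.

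Of the 6 tested genes, 1 (16.7%) was called at an adjusted p under 0.05, against 41.3% of all 14757 genes. None of the 6 was called lower by edgeR's quasi-likelihood test, 0 at an unadjusted p under 0.05 and 0 with DESeq2 or limma-voom. The call was a rise, and over all genes 20.2% were called higher and 21.1% lower. With TMM scaling, Irx3 and Irx5 were the 2 genes whose groups did not overlap, with U-IRX3ov above control in both, which was true of 24.9% of all tested genes, and none of the 6 had U-IRX3ov wholly below control, which was true of 25.9%. Groups were apart in either direction for 50.8% of all tested genes. Scaled by summed counts, the tally turned: only Irx3 lay wholly above control (16.1% of all tested genes did), Irx1 and Fto lay wholly below (37% did), and Irx5 overlapped. The median log2 difference over the 6 genes was 0.05 and over all tested genes -0.00.

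**Figure D2:**
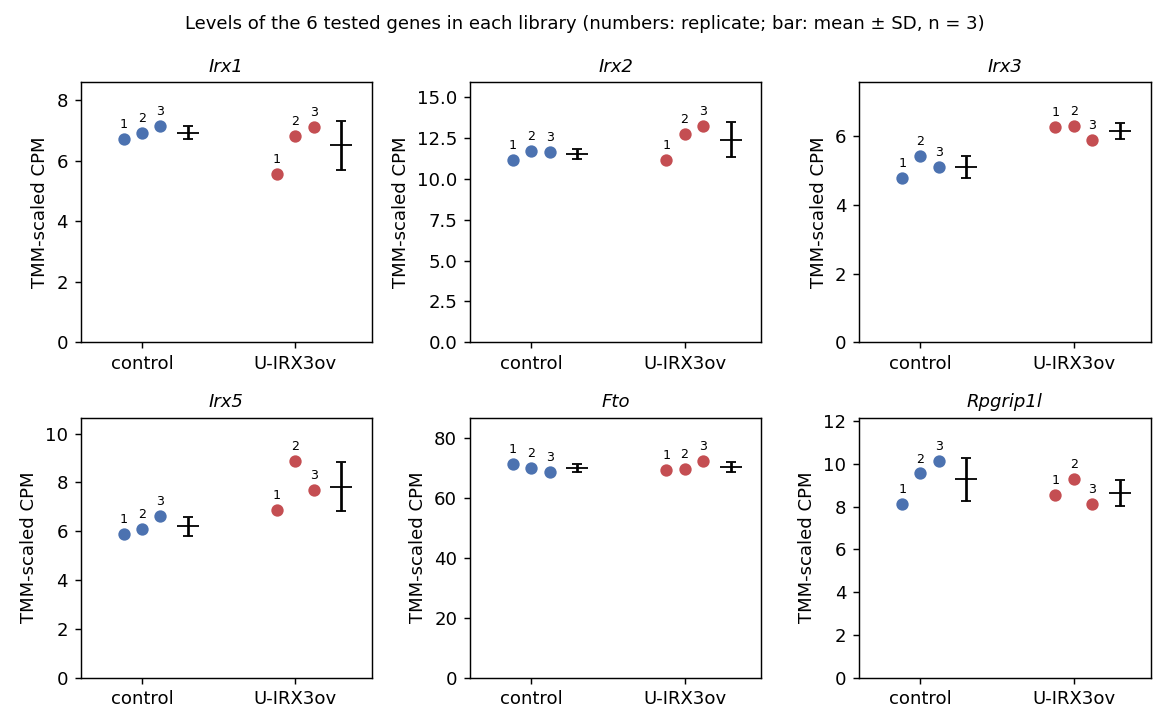
TMM-scaled CPM of each tested gene in the 3 control and 3 U-IRX3ov libraries (points, numbered by replicate) with the mean ± SD (bars). The groups are apart for Irx3 (4.78 to 5.42 CPM against 5.89 to 6.31) and for Irx5 (5.88 to 6.64 against 6.88 to 8.88) and overlap for Irx1, Irx2, Fto and Rpgrip1l.

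Irx1 and Irx2, the expressed genes of the other cluster, did not pass the test. Irx1 had 184, 181 and 193 counts in control and 145, 133 and 138 in U-IRX3ov libraries. Scaled, these were 6.72, 6.91 and 7.16 CPM and 5.58, 6.83 and 7.13 CPM. Irx1 was lowest in U-IRX3ov replicate 1, and the other U-IRX3ov libraries lay within the control range. The log2 difference was -0.10 ± 0.13 (adjusted p = 0.575, edgeR's quasi-likelihood test), with a 95% interval of the fold from 0.776 to 1.12. Without U-IRX3ov replicate 1 the difference was 0.01. Scaled by summed counts, each U-IRX3ov library was below each control library, and the difference was -0.20 (adjusted p = 0.231). Irx2 had 306, 307 and 315 counts in control and 291, 249 and 257 in U-IRX3ov libraries, or 11.2, 11.7 and 11.7 CPM and 11.2, 12.8 and 13.3 CPM. Its U-IRX3ov replicate 1 sat at the control level and the other U-IRX3ov libraries above it. The log2 difference was 0.10 ± 0.10 (adjusted p = 0.445) with a 95% interval of the fold from 0.932 to 1.24.

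Ratios between genes of 1 library do not depend on how libraries are scaled, and 4 of them were computed, chosen after the counts were seen. The summed counts of Irx3 and Irx5, divided by those of Irx1 and Irx2, gave 0.596, 0.619 and 0.624 in control libraries and 0.784, 0.775 and 0.666 in U-IRX3ov libraries. All U-IRX3ov libraries were above all control libraries, with means of 0.613 ± 0.015 and 0.742 ± 0.066 (SD, n = 3), and the two-sided exact permutation test gave p = 0.1 (adjusted over the 4 ratios 0.2). The ratio of Irx2 to Irx1 was 1.66, 1.70 and 1.63 in control and 2.01, 1.87 and 1.86 in U-IRX3ov libraries, also apart (exact permutation p = 0.1, adjusted 0.2). The smallest p possible with 3 and 3 libraries is 0.1. The ratio of Irx5 to Irx3 overlapped between the groups (1.22 ± 0.09 and 1.27 ± 0.16, exact permutation p = 0.7). The chromosome 8 pair was thus higher relative to the chromosome 13 pair in all 3 U-IRX3ov libraries, and Irx2 relative to Irx1. In this design the p could not pass the threshold. Among single tested genes 50.8% had groups apart with TMM scaling, and no such share was computed for ratios. The 2 ratios that were apart are therefore given as description only.

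The remaining Iroquois genes and Irx3os were at or near 0. Irx4, known from the ventricles of the heart, had 0 counts in all 6 libraries, which allows up to 0.0207 CPM over the 6 libraries at 3 counts (counting error only). Irx6 had 0, 4 and 3 counts in control libraries and 0 in each U-IRX3ov library. Pooled, Irx6 had 7 counts in control (95% exact Poisson interval 2.81 to 14.4 counts) and 0 in U-IRX3ov libraries (up to 3.69 counts), intervals that overlap and cover counting error only. Control replicate 1 also had 0, so the groups overlapped, and the adjusted p without a low-count filter was 0.133. Irx3os had 10, 2 and 2 counts in control and 9, 3 and 3 in U-IRX3ov libraries. Replicate 1 held the most in each group, and the log2 difference without a filter was 0.37 ± 0.79 (adjusted p = 0.777).

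Fto, the RNA demethylase gene of the locus, was the best measured of the 9 genes and did not pass the test. It had 1953, 1835 and 1849 counts in control and 1800, 1359 and 1400 in U-IRX3ov libraries. Scaled, the values were 71.3, 70.1 and 68.6 CPM in control and 69.2, 69.7 and 72.3 CPM in U-IRX3ov libraries, so the groups overlapped throughout. The log2 difference was 0.01 ± 0.05 with adjusted p = 0.906, with the fold between 0.942 and 1.07 at 95%. In percent the interval ran from -5.78% to 7.30%. Scaled by summed counts, each U-IRX3ov library lay below each control library and the difference was -0.09 (adjusted p = 0.117), so the sign turned with the scaling and neither value passed the test. Gm45427 and 4831440D22Rik lie opposite Fto and share 304 and 144 of its 13031 exonic bases.

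Rpgrip1l, which encodes the ciliary transition zone protein and starts beside Fto, had 223, 250 and 273 counts in control and 222, 181 and 157 in U-IRX3ov libraries. Scaled, these were 8.14, 9.55 and 10.1 CPM and 8.54, 9.29 and 8.11 CPM, and the groups overlapped. The log2 difference was -0.10 ± 0.12 (adjusted p = 0.518), with an interval of the fold from 0.791 to 1.10. The Fto to Rpgrip1l count ratio was 8.76, 7.34 and 6.77 in control and 8.11, 7.51 and 8.92 in U-IRX3ov libraries (exact permutation p = 0.4, adjusted 0.533). Over the 6 libraries the correlation of log2 CPM of Fto and Rpgrip1l was r = -0.78, given as a description of 6 points from 2 groups. The genes whose promoter windows share 198 bases thus gave differences that did not exceed the spread of these libraries.

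**Figure D3:**
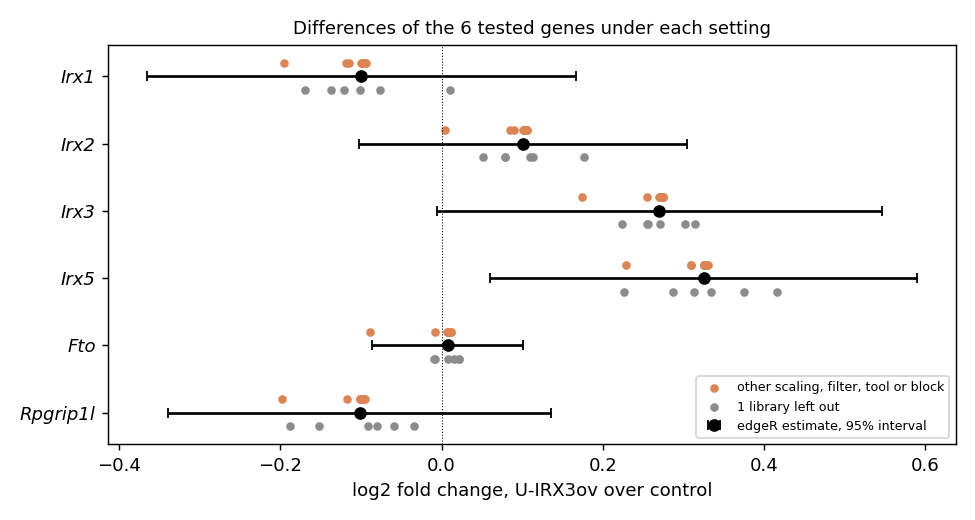
log2 difference (U-IRX3ov minus control) of each tested gene by edgeR with its 95% interval (black), with other scalings, filters, tools or a block (orange) and with 1 library left out (grey). Irx5 stays between 0.23 and 0.42 and Irx3 between 0.17 and 0.31, while Fto lies near 0 (-0.09 to 0.02) and Irx1 mostly below it (-0.20 to 0.01).

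Genes within 1000 kb of the 9 genes were counted next. On chromosome 8 the window held 34 rows, of which 13 had no counts and 8 were tested, and 2 were called higher and 1 lower (37.5%, against 41.3% of all genes). Rbl2, a pocket protein that holds cells out of the division cycle, rose from 39.4 ± 1.7 to 47.5 ± 2.5 CPM (0.27 ± 0.06, adjusted p = 4.92e-04). Ces1d, a carboxylesterase that acts on stored triglyceride, rose from 88.1 ± 7.0 to 132.9 ± 4.5 CPM (0.59 ± 0.05, adjusted p = 5.23e-10). Mmp2, a secreted protease of the extracellular matrix that lies at chr8:92827291-92853420 beyond Irx6, fell from 155.9 ± 7.6 to 65.7 ± 6.1 CPM (-1.24 ± 0.06, adjusted p = 4.01e-12). Crnde, whose start lies 1504 bases from that of Irx5 on the other strand, differed by 0.20 ± 0.28 (adjusted p = 0.596) and was named for its position. Mmp2 is expressed by fibroblasts, and the summed fibroblast markers were 7787 to 8051 CPM in control and 4629 to 5065 CPM in U-IRX3ov libraries, whose part in its fall was not tested. The tested genes around Irx3 and Irx5 thus included changes in both directions.

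On chromosome 13 the window held 32 rows, of which 10 had no counts and 15 were tested, and 5 were called higher and 4 lower (60%, against 41.3% of all genes). The higher and the lower rows each included a processed pseudogene. How reads that match several places were treated was not stated, so the 60% may not describe neighbouring genes alone. Slc12a7, a potassium-chloride cotransporter, rose from 35.6 ± 0.9 to 53.8 ± 1.8 CPM (0.60 ± 0.06, adjusted p = 1.17e-09). Nkd2, an inhibitor of Wnt signalling, fell from 23.7 ± 1.3 to 14.9 ± 2.7 CPM (-0.65 ± 0.10, adjusted p = 1.38e-05). Clptm1l, a membrane protein, fell from 137.5 ± 2.3 to 116.0 ± 6.2 CPM (-0.24 ± 0.04, adjusted p = 2.57e-05). Gm20554, a long noncoding RNA gene that starts 255 bases from Irx2 on the other strand, differed by -0.12 ± 0.30 (adjusted p = 0.78) and was also named for its position. The neighbours of both clusters moved in both directions, and of the 4 tested Iroquois genes only Irx5 passed the test.

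**Figure D4:**
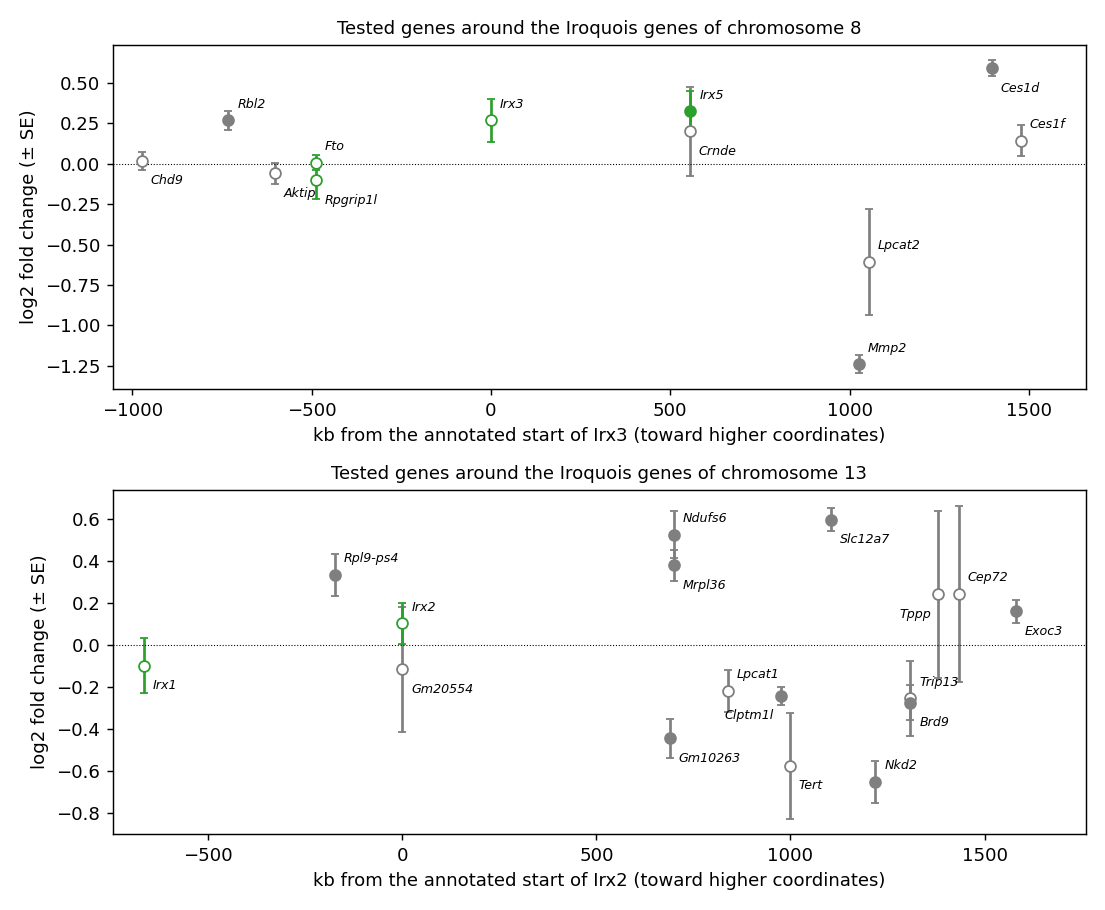
log2 difference (U-IRX3ov minus control) of tested genes within 1000 kb of the chromosome 8 and chromosome 13 clusters, with SE bars, plotted by distance in kb from the starts of Irx3 and Irx2. Filled points passed the test and green points are the Iroquois and Fto locus genes. Mmp2 is the lowest at -1.24 and Slc12a7 the highest on chromosome 13 at 0.60.

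Other TALE homeobox genes, which encode partners and relatives of the Iroquois factors, gave 0 higher and 2 lower of 11 tested with edgeR, 0 higher and 3 lower at an unadjusted p under 0.05, and 0 higher and 2 lower with DESeq2. The share called was 18.2%, against 41.3% of all tested genes. Pknox2 fell from 13.6 ± 1.2 to 8.43 ± 0.65 CPM (-0.69 ± 0.11, adjusted p = 4.86e-06). The groups did not overlap for Pknox2, with U-IRX3ov below control, which was true of 25.9% of all tested genes. The median log2 difference of the 11 was -0.12, against -0.00 over all tested genes.

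Genes that write, erase and read the RNA methylation mark removed by FTO gave 3 higher and 3 lower of 19 tested (31.6%, against 41.3% of all tested genes), with a median of -0.01. Alkbh5, the other known eraser of this mark, rose from 142.6 ± 2.4 to 183.3 ± 5.0 CPM (0.36 ± 0.04, adjusted p = 8.7e-09), whereas Fto did not pass the test. Igf2bp3, a reader, fell from 11.6 ± 0.5 to 7.71 ± 0.31 CPM (-0.59 ± 0.11, adjusted p = 5.05e-05). Hnrnpa2b1 was higher by 0.10 ± 0.03 (adjusted p = 0.02), a call that was lost under upper-quartile scaling (adjusted p = 0.0554), scaling by summed counts, and without control replicate 2 or U-IRX3ov replicate 2. Of 7 other dioxygenases of the AlkB family, to which FTO belongs, 2 were called higher and 0 lower with edgeR (3 and 0 at an unadjusted p under 0.05, 1 and 0 with DESeq2), with a median of 0.22. The share called was 28.6%, also below the 41.3% of all tested genes. Alkbh3, a demethylase of nucleic acids, rose from 31.0 ± 2.8 to 41.5 ± 1.5 CPM (0.42 ± 0.07, adjusted p = 7.93e-06). Alkbh7 was higher by 0.43 ± 0.17 (adjusted p = 0.0383), which did not hold when any of 4 of the 6 libraries was left out (control replicate 1, control replicate 2, U-IRX3ov replicate 1 or U-IRX3ov replicate 3). This call was also lost with DESeq2 (adjusted p = 0.0772), edgeR without its robust setting (adjusted p = 0.0508) and edgeR scaled by summed counts (adjusted p = 0.105).

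Genes were listed for the ciliary transition zone from general knowledge, and the place of each in the cilium was not checked. Of 19 tested, 0 were higher and 4 lower with edgeR, with a median of -0.19. At an unadjusted p under 0.05 in that test 1 was higher and 5 lower, and with DESeq2 0 were higher and 3 lower. The share called, 21.1%, was below the 41.3% of all genes. Tctn1 fell from 12.7 ± 0.4 to 9.86 ± 1.05 CPM (-0.37 ± 0.10, adjusted p = 0.00414). Invs fell from 13.2 ± 0.4 to 10.6 ± 0.2 CPM (-0.31 ± 0.10, adjusted p = 0.00926). Tctn2 was lower by -0.38 ± 0.12 (adjusted p = 0.0139), and this call was lost without control replicate 2 (adjusted p = 0.0754) or U-IRX3ov replicate 3 (adjusted p = 0.0643). Rpgrip1l, at -0.10, did not pass with them. Reported binders of the obesity-associated stretch of FTO were both called, where 41.3% of all tested genes were. Arid5b, a DNA-binding regulator of fat cell metabolism, fell from 258.6 ± 4.2 to 204.4 ± 0.8 CPM (-0.34 ± 0.04, adjusted p = 8.25e-09). Cux1, a homeodomain factor, rose from 91.3 ± 2.3 to 106.8 ± 0.5 CPM (0.23 ± 0.04, adjusted p = 4.13e-05).

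**Figure D5:**
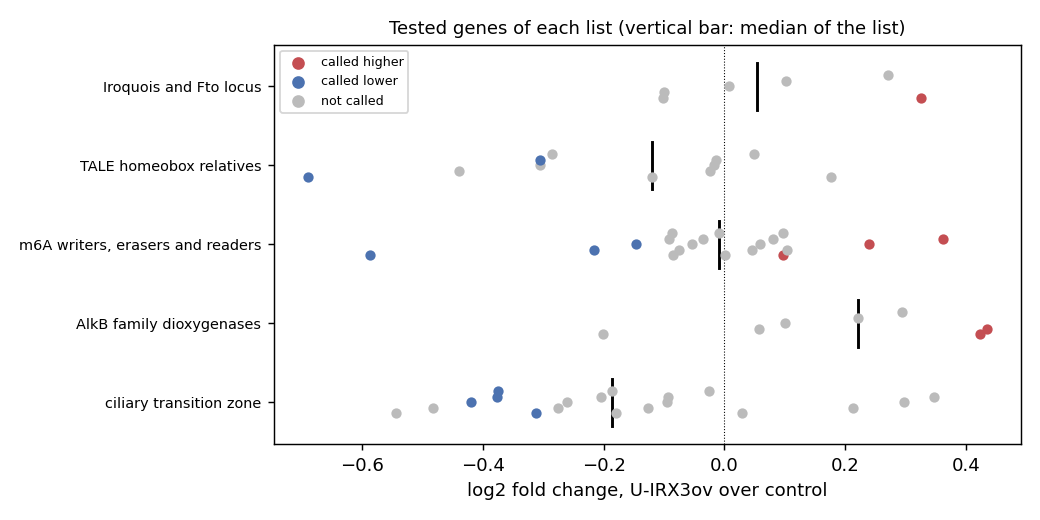
log2 difference (U-IRX3ov minus control) of every tested gene in the related lists, with the median of each list (bar) and called genes in red (higher) or blue (lower). The medians are -0.12 for TALE relatives, -0.01 for the RNA methylation genes, 0.22 for the AlkB family and -0.19 for transition zone genes.

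The genes with patterns most like Irx3 and Irx5 were taken by Pearson correlation of log2 CPM over the 6 libraries, among 8987 genes of at least 10 CPM. For Irx3 these were Mrps31 (r = 0.995), Brpf1 (0.995), Bcr (0.993), Kiz (0.991) and Zfp445 (0.991), and 140 genes had r over 0.95. For Irx5 they were Zfp740 (0.997), Stx4a (0.987), Rwdd4a (0.986), Pex14 (0.983) and Dph1 (0.982), and 41 genes had r over 0.95. With 6 libraries from 2 groups such values are descriptions and carry no test.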

How the data were processed

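RNA sequencing gave 6 libraries, 3 control and 3 U-IRX3ov. The authors deposited raw read counts per gene symbol. HISAT2 2.0.4 and the build mm10 stand in the submitters' processing notes. How reads were counted (program, annotation, strand, several matches) is not given in the sources used here. Library descriptions carry the word combined without saying of what. Of 46095 rows, 33980 matched GENCODE (GRCm38, which is mm10) by symbol, 546 by an older symbol, and 11569 did not match.

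Low-count genes were removed with filterByExpr, which left 14757 genes. Libraries held 20094799 to 26755870 counts, of which at least 99.9% stayed after the filter. Differences were tested in edgeR 4.0.16 (R 4.3.3) by a robust quasi-likelihood test on the 2 groups with TMM scaling and no covariate, and p-values were adjusted by Benjamini-Hochberg over the 14757 genes. The biological coefficient of variation was 5.12%. The scripts were tested on simulated counts. DESeq2 1.42.0 and limma 3.58.1 were alternatives. Counts of replicates of 1 group differed by more than sampling noise. Intervals of folds come from the edgeR model and include the spread between libraries, whereas the Poisson intervals and the floor of 3 counts cover counting error only.

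Named genes were the 9 genes, the 3 members with the smallest p among those called in each related list and chromosome window, the 5 genes most correlated with Irx3 and with Irx5, and up to 2 markers a list by p, except Ucp1, Crnde and Gm20554, which were named for what they mark or where they lie. Zic1 and Lhx8 were also named, as the brown adipocyte markers called lower. Members and lists were chosen with earlier results of these data known. A called gene of the TALE list is not reported here.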

Additional observations from a re-analysis of the deposited data

How the results depend on the processing

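Irx3 ranged from 0.17 to 0.31 over 15 alternatives and was never called (adjusted p 0.104 to 0.315), and Irx2 and Rpgrip1l kept their direction. The rise of Irx5 (0.33) was lost with upper-quartile scaling (0.31, adjusted p = 0.0571), no low-count filter (0.33, adjusted p = 0.0548), DESeq2 (0.33, adjusted p = 0.0864), limma-voom (0.31, adjusted p = 0.0637) and summed counts (0.23, adjusted p = 0.158), and its values ranged from 0.23 to 0.42 with 1 library left out. Of the 6 tested genes, 0 were then called higher under these 5 settings and 0 to 1 with 1 library left out. The cause was not tested. Scaling by summed counts gave 1935 genes higher and 4670 lower, against 2978 and 3120 with TMM, and moved the median of all genes from -0.00 to -0.10. The direction turned for Irx1 without U-IRX3ov replicate 1 (0.0101, from -0.17 over the omissions), for Fto with upper-quartile scaling (-0.00805), without control replicate 3 (-0.00777), without U-IRX3ov replicate 3 (-0.00940) (up to 0.0216 over the omissions) and with summed counts (-0.0885), for Irx3os without U-IRX3ov replicate 1 (-0.16, up to 1.52), for Crnde without control replicate 3 (-0.0198) or U-IRX3ov replicate 3 (-0.0254, up to 0.36), and for Gm20554 without control replicate 2 (0.25, from -0.28). Calls among the RNA methylation genes ranged from 1 to 4 higher and 1 to 5 lower, in the AlkB family from 1 to 3 higher, and in the transition zone list from 0 to 1 higher and 3 to 7 lower. A 500 kb window gave 3 neighbours lower. The longest transcript in place of the exonic length moved Fto over Rpgrip1l from 8.59 to 11.4 and Fto over Irx2 from 1.53 to 3.39. These are means of the ratios in the control libraries. Deviations of same-numbered replicates from their group means had correlations of -0.109, 0.169 and -0.0237, and those of differently numbered replicates ran from -0.152 to 0.172. With 3 libraries a group these values cannot show whether the numbers mark a shared animal, culture or day. A replicate block in edgeR gave Irx5 0.33 (adjusted p = 0.0413), Irx3 0.27 (adjusted p = 0.121) and 3014 genes higher and 3159 lower. Summed counts of 400 to 501 a group limit the precision for Irx3 and Irx5.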
